A study of Mus musculus with 60 samples.

Results

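The voltage-gated sodium and calcium channel subunits were described in hippocampus of 30-week-old wild-type (WT) and R6/1 mice. Members were taken by symbol from the deposited expression table: sodium channel alpha and beta subunits (Scn genes) and calcium channel alpha1, alpha2delta and beta subunits (Cacna1, Cacna2d and Cacnb genes), of which 30 of 24508 symbols are described. They divide into 9 sodium alpha, 3 sodium beta, 10 calcium alpha1, 4 alpha2delta and 4 calcium beta subunits. The R6/1 transgene holds exon 1 of human huntingtin with an expanded CAG repeat, driven by the human promoter, and the line is a model of Huntington's disease. Both genotypes have a mixed CBA x C57BL/6 background, and the tissue was frozen hippocampus. Per the labels, RNA came from 9 independent biological replicates of each genotype, with RNA integrity numbers between 9 and 10. Lamin B1 ChIP-seq used pools of 5 mice in 3 biological replicates per genotype, and 1 domain list per genotype was deposited. ATAC-seq of the series was not analysed here.

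Sodium channel alpha subunits form the pore that carries the rising phase of the action potential, and the beta subunits, single-pass membrane proteins, adjust its gating and its place in the membrane. Calcium channel alpha1 subunits form the pores of the L-type, P/Q-type, N-type, R-type and T-type channels, which link depolarization to gene transcription, transmitter release and rhythmic firing. The extracellular alpha2delta and intracellular beta subunits bring calcium channels to the membrane and set how they open. In hippocampal neurons, these channels determine where spikes start, how they repeat and how much transmitter a spike releases.

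Upstream sequences are shown for members of the 2 gene groups described below, the clustered sodium alpha genes and the adjacent beta genes Scn2b and Scn4b, because the members of each group changed in the same direction. The RefSeq promoter table (build GRCm38.p6) matched 24 of the 30 members with 34 start sites; Scn3a, Scn3b, Cacna1a, Cacna1g, Cacna1h and Cacna2d4 had no entry. Each sequence is the 250 bases before the start site, 5′ to 3′ on the gene's strand. Capitals mark a match, on either strand, to 1 of 7 motifs searched: CCAAT (the CCAAT box) in Scn1a and Scn4b, and, in Scn7a, GCGTGGGCG (an EGR site) overlapping GGGCGG (the GC box), both read on the opposite strand. The first listed start of Scn2a (chr2:65620519-65620768, plus strand), Scn1a (chr2:66440838-66441087, minus strand), Scn9a (chr2:66634963-66635212, minus strand), Scn7a (chr2:66784911-66785160, minus strand), Scn2b (chr9:45117626-45117875, plus strand) and Scn4b (chr9:45138374-45138623, plus strand) read as follows.
Scn2a: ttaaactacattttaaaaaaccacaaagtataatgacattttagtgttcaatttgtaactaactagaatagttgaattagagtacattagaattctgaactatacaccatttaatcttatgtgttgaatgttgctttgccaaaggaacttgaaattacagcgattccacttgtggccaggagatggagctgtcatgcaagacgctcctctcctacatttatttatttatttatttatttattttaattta
Scn1a: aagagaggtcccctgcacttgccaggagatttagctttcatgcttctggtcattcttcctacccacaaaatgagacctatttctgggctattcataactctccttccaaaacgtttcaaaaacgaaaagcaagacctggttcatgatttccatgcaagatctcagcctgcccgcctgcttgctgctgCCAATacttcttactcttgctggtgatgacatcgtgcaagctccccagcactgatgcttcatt
Scn9a: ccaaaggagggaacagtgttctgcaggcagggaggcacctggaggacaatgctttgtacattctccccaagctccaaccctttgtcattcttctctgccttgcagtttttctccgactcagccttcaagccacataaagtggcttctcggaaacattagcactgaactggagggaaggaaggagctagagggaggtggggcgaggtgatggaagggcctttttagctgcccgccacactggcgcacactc
Scn7a: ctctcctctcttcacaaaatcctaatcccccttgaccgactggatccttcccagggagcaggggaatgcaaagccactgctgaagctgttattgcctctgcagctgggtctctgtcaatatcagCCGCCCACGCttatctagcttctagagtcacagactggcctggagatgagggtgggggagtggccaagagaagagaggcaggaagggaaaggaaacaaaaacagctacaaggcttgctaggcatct
Scn2b: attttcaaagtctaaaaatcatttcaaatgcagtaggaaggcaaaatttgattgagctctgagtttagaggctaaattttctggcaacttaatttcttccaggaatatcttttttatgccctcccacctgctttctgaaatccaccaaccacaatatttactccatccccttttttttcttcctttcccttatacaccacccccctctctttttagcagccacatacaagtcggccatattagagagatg
Scn4b: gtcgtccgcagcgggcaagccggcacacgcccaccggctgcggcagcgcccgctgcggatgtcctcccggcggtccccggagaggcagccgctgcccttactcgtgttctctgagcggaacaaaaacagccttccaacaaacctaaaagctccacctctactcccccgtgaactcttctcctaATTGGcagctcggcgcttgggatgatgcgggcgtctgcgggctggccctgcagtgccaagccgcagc

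At the starts printed, the 4 alpha genes had fewer CpG dinucleotides than the median promoter. There were 2 in Scn2a, 4 in Scn1a, 5 in Scn9a and 3 in Scn7a, where the median of all 32851 promoters was 6. Their GC content was 29.6%, 46.8%, 54.4% and 53.2% in the same order, and the median of all promoters was 52.4%. The pair of beta genes differed from each other, with 1 CpG and 38.4% GC in Scn2b and 23 CpG and 66.0% GC in Scn4b. Of the alpha genes outside the cluster, Scn8a had 30 CpG and 68.0% GC at its first start. Scn4a had 4 CpG and 61.6% GC, Scn10a 8 CpG and 49.6% GC, and Scn11a 3 CpG and 48.0% GC. The second listed starts differed from the first: that of Scn2a had 9 CpG and 53.2% GC, and that of Scn8a had 9 CpG and 53.2% GC.

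Both strands were searched for all 7 motifs. CCAAT was present in 8 of the 34 member promoters and 33.8% of all promoters, among them Scn1a and Scn4b, and GGGCGG was present in 13 of the 34 member promoters and 32.7% of all promoters. The core of the cAMP response element, TGACG, was found in 6 of the 34 member promoters and 17.8% of all promoters, and its full form TGACGTCA, which contains it, in 0 of the 34 member promoters and 1.55% of all promoters. TATAAA occurred in 2 of the 34 member promoters and 12.4% of all promoters, at the second listed start of Scn2a and in Cacna1d. GCGTGGGCG occurred in 1 of the 34 member promoters and 0.536% of all promoters, the match in Scn7a, and TTCAGCACC, part of the REST site, in 0 of the 34 member promoters and 0.301% of all promoters. These are matches of letters in these windows. No motif was shared by all 4 printed alpha promoters.

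Expression is given in RPKM, reads per kilobase of transcript scaled for depth. The transcript lengths used are not given in the sources used here, and levels, sums and shares compared between genes rest on them. The 9 WT libraries held between 12299434 and 16457022 reads on genes and the 9 R6/1 libraries between 13260311 and 16736544. Genes whose mean over the 18 libraries reached 0.5 RPKM were tested with limma on log2(RPKM + 0.5), and an adjusted p under 0.05 (Benjamini-Hochberg over all 14446 tested genes) is called a change. Htt, the mouse gene, averaged 17.6 ± 1.69 in WT and 18.3 ± 1.72 in R6/1, in RPKM (SD, n = 9 each; limma adjusted p 0.474), and it does not check the transgene, which holds human sequence. Ttr, a choroid plexus gene, ranged from 19.0 to 1035 RPKM in WT and from 33.4 to 1696 RPKM in R6/1, so libraries of both genotypes differed in choroid plexus RNA. In whole tissue, fewer cells of a type and less RNA per cell cannot be told apart.

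Of the 30 members, 24 reached the mean of 0.5 RPKM. Among these, 7 were higher in R6/1, 15 were lower and 2 did not pass the test. Over all tested genes 48.3% were called, 24.8% higher and 23.5% lower. The members' median log2 fold change was -0.18 against 0.00 for all tested genes, and their median absolute change was 0.30 against 0.16. Genotypes did not overlap for 8 members, 4 higher and 4 lower in R6/1, where 11.9% of all tested genes did not overlap, 5.5% higher and 6.38% lower. By class, 5 of 6 tested sodium alpha genes rose, all 3 sodium beta genes described fell, 2 of 8 tested calcium alpha1 genes rose and 5 fell, and 6 of 7 tested calcium auxiliary genes fell with none rising. When libraries were instead scaled by their own read totals, 7 members were higher and 9 lower, a split of 43.8% higher in place of 31.8%, while the split over all genes went from 51.4% to 66.9% higher (35.4% of tested genes higher, 17.5% lower). That scaling moved the median over all tested genes from 0.00 to 0.07. In the 8 libraries with Ttr under 200 RPKM (5 WT and 3 R6/1), 6 members were higher and 6 lower, with 27.8% of all genes called.

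**Figure D1:**
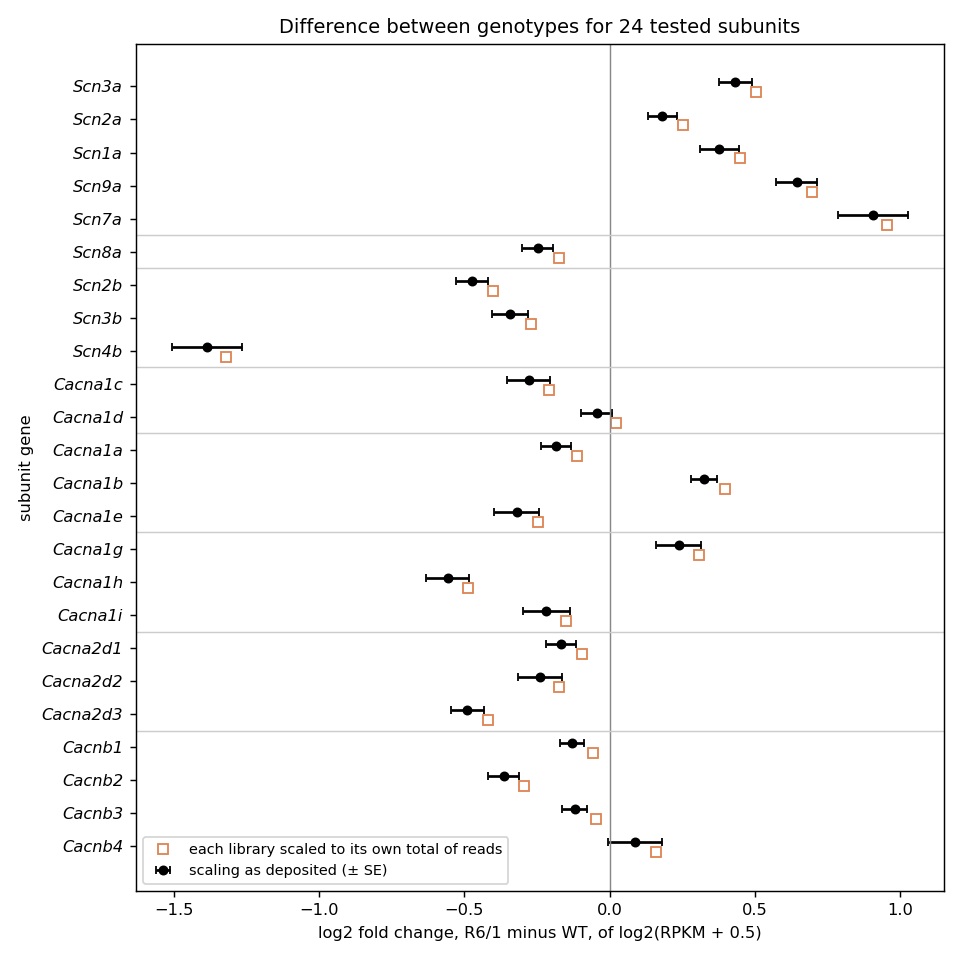
Log2 fold change of each tested subunit (R6/1 minus WT, on log2(RPKM + 0.5)), with its standard error, as black points, and the value after scaling by each library's own read total as open squares; grey lines part the subunit classes. The 5 clustered sodium alpha genes lie right of 0 and the 3 sodium beta genes left of it under both scalings, and Cacna1d changes side.

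A group of 5 alpha genes lies in a cluster on chromosome 2, and all 5 rose in R6/1. Scn1a, the main alpha subunit of fast-spiking inhibitory neurons, ranged from 16.7 to 22.5 RPKM in WT (median 17.9) and from 20.3 to 28.9 RPKM in R6/1 (median 24.3). Of the 9 R6/1 libraries, 7 lay above the highest WT library. The mean was 18.5 ± 2.01 RPKM over the WT libraries and 24.2 ± 2.61 over the R6/1 libraries (SD, n = 9 each; log2 fold change 0.38, SE 0.0665, limma adjusted p 9.85e-05). Scn2a, an alpha subunit of excitatory neurons and of unmyelinated axons, had 36.5 RPKM in the lowest, 41.0 in the median and 45.9 in the highest WT library, against 43.2, 45.4 and 52.1 in R6/1. Its R6/1 libraries lay in the upper part of the WT range or above it, 4 of them beyond the highest WT library. The change was the smallest of the 5 (log2 fold change 0.18, SE 0.0502, limma adjusted p 0.00537), and in the 8 libraries with low Ttr it did not pass the test (0.19, adjusted p 0.0690). Scn3a, an alpha subunit that is abundant in the embryonic brain, lay between 7.55 and 9.67 RPKM in WT with a median of 8.13, and between 10.4 and 13.1 RPKM in R6/1 with a median of 11.0. No R6/1 library was as low as any WT library. Its mean was 8.40 ± 0.695 RPKM over the WT libraries and 11.5 ± 1.09 over the R6/1 libraries (log2 fold change 0.43, SE 0.0566, limma adjusted p 3.32e-06).

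The remaining genes of the cluster were expressed at low levels. Scn9a, known from pain-sensing neurons, ranged from 0.747 to 0.986 RPKM in WT (median 0.824) and from 1.23 to 1.95 RPKM in R6/1 (median 1.62), from 94 to 155 reads per WT library and 201 to 315 per R6/1 library. The genotypes were fully apart. The ratio of the means was 1.90 (log2 fold change 0.64, SE 0.0700, limma adjusted p 3.36e-07). Scn7a, which encodes a sodium-sensing channel that responds to the salt level rather than to voltage, had 0.285 RPKM in the lowest, 0.491 in the median and 0.943 in the highest WT library, against 1.02, 1.54 and 1.76 in R6/1. Again no library of one genotype reached the range of the other. Its read counts were 28 to 94 in WT and 113 to 214 in R6/1, and the ratio of the means was 2.58 (log2 fold change 0.91, SE 0.119, limma adjusted p 3.64e-06), the largest increase among the tested members. On this scale, the log2 fold changes of such low genes are understated. The 3 WT libraries with the most Ttr, replicates 1, 3 and 5, also had the most Scn7a, at 0.836, 0.943 and 0.811 RPKM. In R6/1 the library with the most Ttr, replicate 3, had 1.39 RPKM of Scn7a, and the one with the most Scn7a, replicate 9 at 1.76 RPKM, had 48.1 RPKM of Ttr. In the 8 libraries with Ttr under 200 RPKM the Scn7a difference was as large (1.13, adjusted p 0.000746).

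Scn8a, the alpha subunit of mature initial segments and nodes, lies on chromosome 15 and was the only tested alpha gene that fell. It ranged from 37.3 to 47.3 RPKM in WT (median 40.3) and from 30.6 to 37.7 RPKM in R6/1 (median 35.3). All R6/1 libraries were under the WT median, and 8 were under the lowest WT library. The mean was 41.2 ± 3.60 RPKM over the WT libraries and 34.6 ± 2.64 over the R6/1 libraries (log2 fold change -0.25, SE 0.0529, limma adjusted p 0.000661). In the low-Ttr libraries the difference missed the threshold (-0.19, adjusted p 0.0595).

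The make-up of the alpha pool differed between genotypes. Summed over the 9 alpha genes, RPKM ranged from 100.2 to 125 in WT and from 109 to 132 in R6/1, ranges that overlap. Scn8a made up 37.0 ± 1.22% in WT and 28.7 ± 1.17% in R6/1 of this sum (SD, n = 9 each), Scn2a 37.5 ± 1.34% in WT and 39.2 ± 0.837% in R6/1, Scn1a 16.6 ± 0.776% in WT and 20.0 ± 1.21% in R6/1 and Scn3a 7.55 ± 0.317% in WT and 9.53 ± 0.374% in R6/1. For Scn8a, Scn1a and Scn3a the shares did not overlap between genotypes. In WT, Scn2a and Scn8a were at about the same level, and in R6/1 Scn2a was the higher in every library. The ratio of Scn2a to Scn8a was 0.941 to 1.15 in WT (median 0.997) and 1.24 to 1.48 in R6/1 (median 1.37).

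Ratios between subunits of a class do not depend on how libraries are scaled, and 17 pairs were compared (exact permutation test, two-sided, over the 48620 possible assignments of libraries to genotypes, Benjamini-Hochberg over the 17). Of these, 12 had an adjusted p under 0.05 and 5 showed no overlap. Scn2a to Scn8a was one of them (difference 0.43 on the log2 scale, exact permutation p 4.11e-05, adjusted p 0.000140), and this p is the smallest the design can give. The ratio of Scn1a to Scn8a was 0.407 to 0.484 in WT (median 0.456) and 0.639 to 0.820 in R6/1 (median 0.677), with no overlap (difference 0.64 on the log2 scale, exact permutation p 4.11e-05, adjusted p 0.000140). Inside the cluster the members moved by different amounts. The ratio of Scn2a to Scn3a was 4.60 to 5.54 in WT (median 4.90) and 3.94 to 4.25 in R6/1 (median 4.14) (difference -0.27 on the log2 scale, exact permutation p 4.11e-05, adjusted p 0.000140). Scn1a to Scn2a rose by less, with overlap (difference 0.20 on the log2 scale, exact permutation p 0.000905, adjusted p 0.00171).

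**Figure D2:**
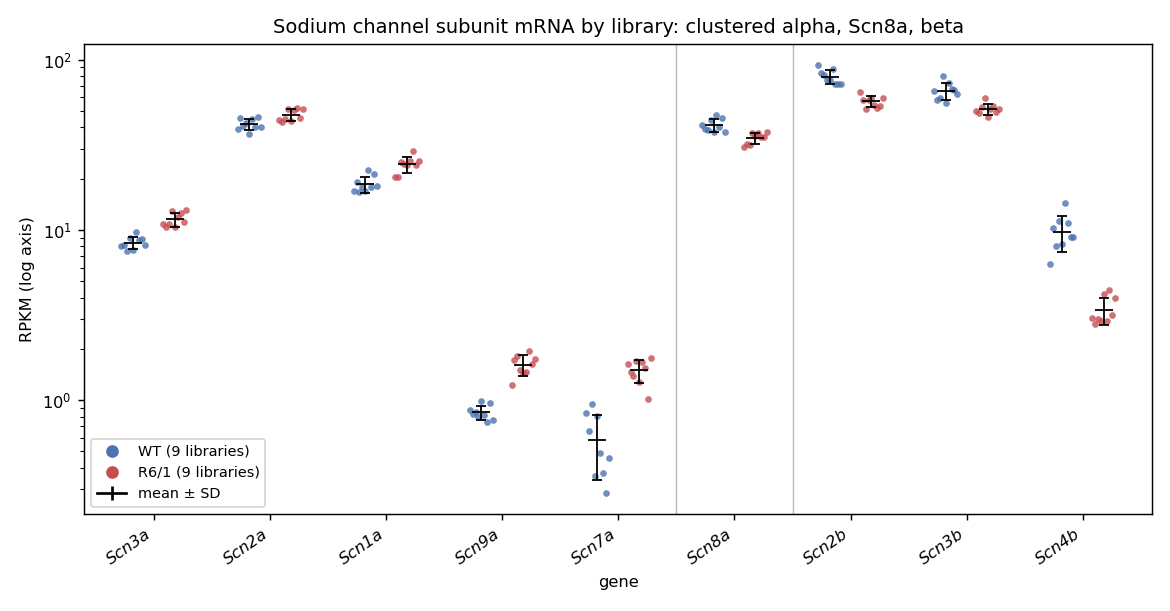
RPKM of 9 tested sodium channel subunits in every library (log axis), WT in blue and R6/1 in red, with the mean and SD in black. Grey lines part the 5 clustered alpha genes, Scn8a and the 3 beta genes. For Scn3a, Scn9a, Scn7a, Scn2b and Scn4b the red and blue points do not overlap.

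Transcripts of the 3 sodium beta subunits described all fell. Scn2b, which is disulfide-linked to the alpha subunit, had 71.7 RPKM in the lowest, 75.8 in the median and 92.4 in the highest WT library, against 51.5, 57.7 and 64.6 in R6/1. Each R6/1 library was under the lowest WT library (log2 fold change -0.47, SE 0.0544, limma adjusted p 6.87e-07). Scn3b, which joins the alpha subunit without such a bond, lay between 55.6 and 80.5 RPKM in WT with a median of 65.7, and between 45.8 and 59.4 RPKM in R6/1 with a median of 51.2. Here 8 R6/1 libraries were under the lowest WT library (log2 fold change -0.34, SE 0.0616, limma adjusted p 0.000123).

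Scn4b, the subunit linked to resurgent sodium current and known for its high level in striatum, showed the largest change of the 24 tested members. It ranged from 6.34 to 14.3 RPKM in WT (median 9.12) and from 2.80 to 4.40 RPKM in R6/1 (median 3.04). The R6/1 libraries formed a narrow group under all WT libraries. The mean was 9.73 ± 2.32 RPKM over the WT libraries and 3.37 ± 0.622 over the R6/1 libraries (SD, n = 9 each; log2 fold change -1.38, SE 0.120, limma adjusted p 1.40e-08), so WT held 2.88 times the R6/1 level, and over the alternatives run with limma the log2 fold change ranged from -1.53 to -1.18. Markers of several cell types fell beside it, and further lists are given below. Summed over 6 striatal projection neuron markers, expression ranged over 21.9 to 32.2 RPKM in WT and 15.2 to 19.6 RPKM in R6/1. Of these 6, 3 were lower and none higher, where 23.5% of all tested genes were lower and 24.8% higher. The sum of 6 dentate granule markers, all 6 lower, ranged over 71.3 to 111 RPKM in WT and 42.3 to 53.6 RPKM in R6/1. The part of cell make-up in the fall of Scn4b was not tested. Scn2b and Scn4b did not fall in parallel: the ratio of Scn2b to Scn4b was 6.12 to 14.6 in WT (median 7.91) and 11.9 to 21.3 in R6/1 (median 17.2) (difference 1.04 on the log2 scale, exact permutation p 0.000123, adjusted p 0.000300).

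The balance of these beta to alpha transcripts was lower in R6/1. The summed RPKM of the 3 beta genes over that of the 9 alpha genes was 1.20 to 1.54 in WT (median 1.39) and 0.828 to 1.08 in R6/1 (median 0.925). All 9 R6/1 libraries had a lower ratio than all 9 WT libraries. The sum of the 3 beta genes itself was 154 ± 12.03 in WT and 111 ± 4.92 RPKM in R6/1. These sums describe transcript levels and give no count of channel proteins.

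The place of the genes is given on build NCBIM37 (mm9) with GENCODE annotation. The chromosome 2 cluster spans chr2:65295175-66622971 and holds Scn3a (chr2:65295175-65405684, minus strand, 30 exons), Scn2a (chr2:65458914-65605504, plus strand, 27 exons), Scn1a (chr2:66108838-66278897, minus strand, 28 exons), Scn9a (chr2:66318137-66473009, minus strand, 30 exons) and Scn7a (chr2:66511482-66622971, minus strand, 25 exons), Scn2a under its older symbol. Of the 7 other tested genes inside it or within 1 Mb, 1 rose and none fell at an adjusted p under 0.05, where 24.8% of all tested genes rose and 23.5% fell. Csrnp3, a nuclear transcription factor gene between Scn2a and Scn1a, rose from 11.6 to 14.7 RPKM (difference on the log2 scale 0.33, limma adjusted p 4.48e-05). The log2 fold changes of Galnt3 and Ttc21b, also between those genes, were -0.05 and 0.08 (limma adjusted p 0.635 and 0.286). The increases covered the 5 channel genes and 1 of their 7 neighbours.

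Lamin B1 marks chromatin at the nuclear lamina, and the authors' lists give 1 set of lamin B1 domains per genotype, called with EDD per the file names, so domain bounds have no replicate spread. In WT the whole cluster lay in 1 domain (chr2:61679001-67784000, 6.11 Mb). In R6/1 the list holds 2 domains over that stretch (chr2:62567001-64713000 and chr2:66156001-67303000) with a gap between them. The starts of Scn3a and Scn2a lay in the gap, and so in a domain of WT only, and those of Scn1a, Scn9a and Scn7a lay in a domain of both genotypes. The edge of the second R6/1 domain fell inside the body of Scn1a. Genes on both sides of that edge rose: the log2 fold changes were 0.43 and 0.18 in the gap, and 0.38, 0.64 and 0.91 beyond it. Whether domain loss and the level of a gene are related was not tested with these 5 genes.

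**Figure D3:**
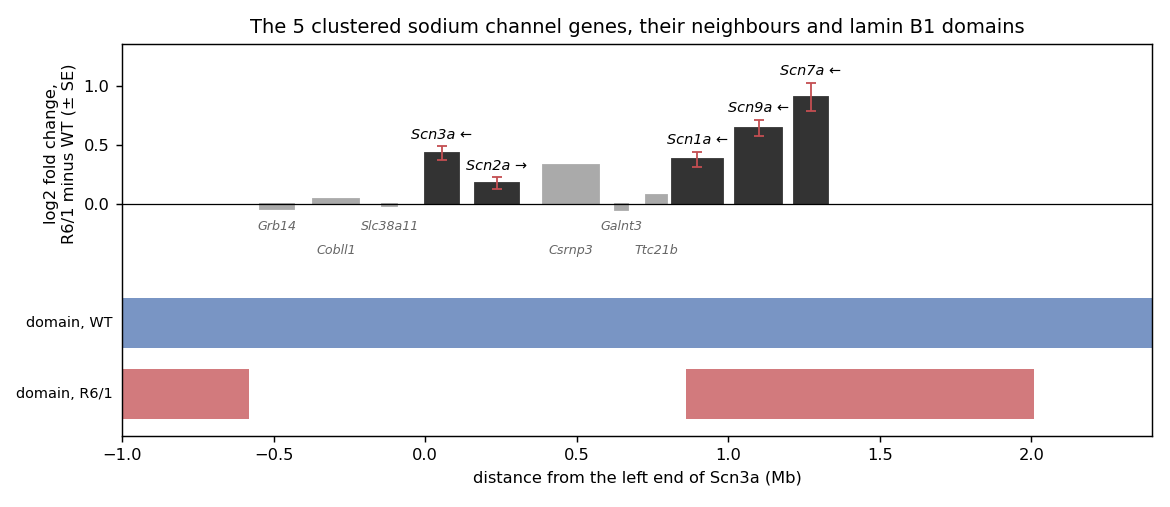
The chromosome 2 cluster by distance from the left end of Scn3a in Mb: bar height is the log2 fold change (R6/1 minus WT), black for the 5 channel genes with their standard error and an arrow for strand, grey for 6 named neighbours; coloured bars below are the authors' lamin B1 domains. The 5 channel genes and Csrnp3 stand above 0 with a limma adjusted p under 0.05. The other named neighbours lie between -0.05 and 0.08. The second R6/1 domain covers the cluster from inside Scn1a to its right end.

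Outside this cluster, the start of Cacna2d1 lay in a domain of both genotypes and that of Cacnb4 in a domain of WT only. The other 23 members had their start in no domain. Of the 24 tested members, 16.7% started in a domain of both genotypes and 12.5% in one of WT only, against 7.72% and 5.34% of 12431 tested protein-coding genes, and 5 of these 7 members share the 1 locus. The tested members were long, with a median gene length of 138 kb against 24.9 kb for all tested protein-coding genes. Scn2b and Scn4b lie 8.37 kb apart on the same strand (chr9:44925959-44938153, plus strand, 4 exons and chr9:44946520-44962235, plus strand, 5 exons), in no domain. Among 40 other tested genes within 1 Mb of this pair, 13 rose and 10 fell, beside 24.8% and 23.5% of all tested genes.

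Limits of the counting bear on some members. Annotated genes lie on the opposite strand of 16 of the 30 members, such as Gm13630 over Scn1a and Gm13629 over Scn9a (log2 fold change 0.03, limma adjusted p 0.904), and whether strand was used in counting is not given in the sources used here. The 50-base words of coding transcripts were also compared between genes, on the same strand only. For Scn1a, Scn2a, Scn3a and Scn9a, 5.14% to 8.29% were found in coding transcripts of other genes. The share was at most 2.10% for any other member. Noncoding transcripts and the opposite strand were not searched.

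Calcium channel alpha1 genes went in both directions in the presynaptic and T-type groups. Among the presynaptic channels, Cacna1b, the pore of N-type channels, ranged from 13.8 to 16.1 RPKM in WT (median 14.5) and from 16.8 to 21.7 RPKM in R6/1 (median 18.3). Each R6/1 library was above every WT library (log2 fold change 0.33, SE 0.0446, limma adjusted p 5.81e-06). Cacna1a, the pore of P/Q-type channels, had 22.5 RPKM in the lowest, 24.7 in the median and 29.1 in the highest WT library, against 20.5, 22.2 and 23.5 in R6/1. The R6/1 libraries were all under the WT median, and 5 were under the lowest WT library (log2 fold change -0.18, SE 0.0519, limma adjusted p 0.00595). Cacna1e, the pore of R-type channels, lay between 24.7 and 36.1 RPKM in WT with a median of 27.8, and between 18.6 and 26.4 RPKM in R6/1 with a median of 23.1. Again 5 R6/1 libraries lay under the lowest WT library and the others inside the lower part of the WT range (log2 fold change -0.32, SE 0.0777, limma adjusted p 0.00199).

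The ratio of Cacna1a to Cacna1b, the P/Q-type over the N-type pore, was 1.50 to 1.93 in WT (median 1.73) and 1.07 to 1.33 in R6/1 (median 1.21), with no overlap (difference -0.52 on the log2 scale, exact permutation p 4.11e-05, adjusted p 0.000140). Cacna1b made up 12.1 ± 0.612% in WT and 17.1 ± 0.901% in R6/1 of the summed alpha1 RPKM. The ratio of Cacna1a to Cacna1e did not pass the test (difference 0.14 on the log2 scale, exact permutation p 0.0558, adjusted p 0.0722). In the low-Ttr libraries the increase of Cacna1b remained past the threshold (0.33, adjusted p 0.00443), and the falls of Cacna1a (-0.15, adjusted p 0.197) and Cacna1e (-0.13, adjusted p 0.178) did not pass it. Under scaling to own totals Cacna1a also missed it (-0.11, adjusted p 0.0662).

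Of the T-type pores, which open near rest and support burst firing, Cacna1h showed the largest change of the tested calcium channel members. It ranged from 13.0 to 20.9 RPKM in WT (median 16.5) and from 9.93 to 12.7 RPKM in R6/1 (median 11.2). The genotypes did not overlap, and the mean was 16.8 ± 2.33 RPKM over the WT libraries and 11.2 ± 1.04 over the R6/1 libraries (log2 fold change -0.56, SE 0.0734, limma adjusted p 3.65e-06). Cacna1g had 6.20 RPKM in the lowest, 8.23 in the median and 9.15 in the highest WT library, against 7.32, 9.24 and 11.3 in R6/1. Of the R6/1 libraries, 8 were above the WT median and 5 above the highest WT library (log2 fold change 0.24, SE 0.0776, limma adjusted p 0.0157). Cacna1i lay between 8.70 and 13.5 RPKM in WT with a median of 9.04, and between 6.89 and 10.6 RPKM in R6/1 with a median of 8.51. Its WT range was set by replicate 1 at the top, and 6 R6/1 libraries were under the lowest WT library (log2 fold change -0.22, SE 0.0811, limma adjusted p 0.0316). That call did not pass without WT replicate 1 (adjusted p 0.0511) or 8 (0.0507), or without R6/1 replicate 2 (0.0618), 3 (0.0642) or 4 (0.0553). It was also lost in the low-Ttr libraries (-0.04, adjusted p 0.798) and under scaling to own totals (-0.15, adjusted p 0.113).

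The balance of the T-type pores differed between genotypes. In WT, Cacna1h was the more abundant in every library, and in R6/1 it was still so but by less. The ratio of Cacna1g to Cacna1h was 0.344 to 0.539 in WT (median 0.488) and 0.715 to 0.927 in R6/1 (median 0.840), with no overlap (difference 0.83 on the log2 scale, exact permutation p 4.11e-05, adjusted p 0.000140). The ratio of Cacna1g to Cacna1i was 0.458 to 1.04 in WT (median 0.831) and 0.988 to 1.25 in R6/1 (median 1.12) (difference 0.48 on the log2 scale, exact permutation p 8.23e-05, adjusted p 0.000233). Cacna1h to Cacna1i went the other way (difference -0.35 on the log2 scale, exact permutation p 0.0187, adjusted p 0.0265), and without WT replicate 6 its adjusted p was 0.0501, which did not pass. In the low-Ttr libraries neither ratio to Cacna1i passed, with differences of about the same size or larger (0.41, adjusted p 0.0675 for Cacna1g and -0.49, adjusted p 0.117 for Cacna1h); 3 R6/1 and 5 WT libraries allow 56 assignments, and the smallest exact permutation p is 0.0179.

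L-type pores couple activity to transcription in neurons. Cacna1c, the main one in brain, ranged from 9.41 to 14.6 RPKM in WT (median 11.9) and from 8.24 to 10.7 RPKM in R6/1 (median 9.66). The R6/1 libraries stood in the lower part of the WT range, with 3 below it (log2 fold change -0.28, SE 0.0738, limma adjusted p 0.00393). In the low-Ttr libraries this fall was not past the threshold (-0.09, adjusted p 0.440). Cacna1d, an L-type pore known from pacemaking cells, had 6.07 RPKM in the lowest, 6.35 in the median and 7.56 in the highest WT library, against 5.52, 6.37 and 6.90 in R6/1. These ranges largely coincide, and the difference did not pass the test (log2 fold change -0.05, SE 0.0529, limma adjusted p 0.506). Its sign changed under scaling to own totals (0.02, adjusted p 0.740). The ratio of Cacna1c to Cacna1d was 1.51 to 2.21 in WT (median 1.77) and 1.40 to 1.70 in R6/1 (median 1.55) (difference -0.24 on the log2 scale, exact permutation p 0.00165, adjusted p 0.00280), and in the low-Ttr libraries it did not pass (-0.16, adjusted p 0.101).

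In order of mean level in WT, the tested alpha1 genes ran Cacna1e, Cacna1a, Cacna1h, Cacna1b, Cacna1c, Cacna1i, Cacna1g and Cacna1d. In R6/1, Cacna1b stood above Cacna1h and Cacna1g above Cacna1i. Mean levels in R6/1 were 18.5 ± 1.49 RPKM for Cacna1b and 11.2 ± 1.04 for Cacna1h, against 14.7 ± 0.750 and 16.8 ± 2.33 in WT (SD, n = 9 each). Cacna1c at 9.69 ± 0.822 and Cacna1g at 9.35 ± 1.18 RPKM were within each other's spread in R6/1.

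**Figure D4:**
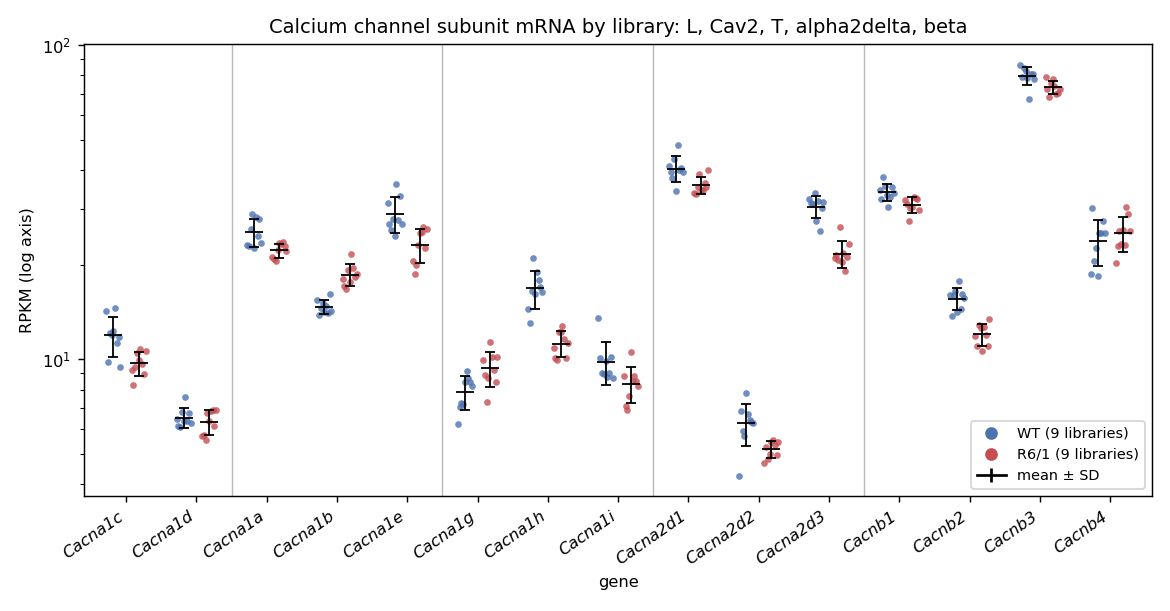
RPKM of each tested calcium channel subunit in every library (log axis), WT in blue and R6/1 in red, with the mean and SD in black; grey lines part L-type, Cav2 (P/Q, N, R), T-type, alpha2delta and beta genes. Cacna1b is higher in all R6/1 libraries, Cacna1h and Cacnb2 are lower in all of them, and Cacna1d and Cacnb4 overlap widely.

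Auxiliary calcium channel subunits were lower or did not pass the test. Cacna2d3 ranged from 25.5 to 33.7 RPKM in WT (median 31.4) and from 19.0 to 26.4 RPKM in R6/1 (median 21.1). All R6/1 libraries but 1 were under the lowest WT library (log2 fold change -0.49, SE 0.0570, limma adjusted p 8.02e-07). Cacna2d1, a binding site of gabapentin-like drugs, had 34.2 RPKM in the lowest, 40.0 in the median and 48.2 in the highest WT library, against 33.6, 35.3 and 39.9 in R6/1. The R6/1 range sat within the lower part of the WT range, with 2 libraries just below it (log2 fold change -0.17, SE 0.0512, limma adjusted p 0.0101). Cacna2d2, the gene mutated in ducky mice, lay between 4.26 and 7.82 RPKM in WT with a median of 6.33, and between 4.68 and 5.54 RPKM in R6/1 with a median of 5.23. Its R6/1 libraries fell inside the WT range and all under the WT median (log2 fold change -0.24, SE 0.0756, limma adjusted p 0.0123). Neither Cacna2d1 nor Cacna2d2 passed under scaling to own totals (-0.10, adjusted p 0.0971 and -0.17, adjusted p 0.0830) or in the low-Ttr libraries (-0.13, adjusted p 0.111 and -0.20, adjusted p 0.0567). The ratio of Cacna2d1 to Cacna2d3 was 1.20 to 1.57 in WT (median 1.28) and 1.48 to 1.92 in R6/1 (median 1.67) (difference 0.33 on the log2 scale, exact permutation p 0.000206, adjusted p 0.000437). Cacna2d1 to Cacna2d2 (difference 0.09 on the log2 scale, exact permutation p 0.445, adjusted p 0.472) and Cacna2d2 to Cacna2d3 (difference 0.24 on the log2 scale, exact permutation p 0.0595, adjusted p 0.0722) did not pass the test.

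Of the beta subunits, which bind the inner side of the pore, Cacnb2 showed the largest change. It ranged from 13.8 to 17.7 RPKM in WT (median 16.0) and from 10.6 to 13.5 RPKM in R6/1 (median 11.96). The genotypes did not overlap (log2 fold change -0.36, SE 0.0530, limma adjusted p 1.17e-05). Cacnb3, the most abundant, had 67.5 RPKM in the lowest, 80.9 in the median and 86.6 in the highest WT library, against 68.5, 72.5 and 78.8 in R6/1. R6/1 libraries lay under the WT median and inside the WT range, whose lowest library, replicate 6, stood apart (log2 fold change -0.12, SE 0.0414, limma adjusted p 0.0204). Cacnb1, also the beta subunit of skeletal muscle, lay between 30.5 and 37.9 RPKM in WT with a median of 33.7, and between 27.4 and 32.9 RPKM in R6/1 with a median of 31.3. Here 4 R6/1 libraries were under the lowest WT library (log2 fold change -0.13, SE 0.0414, limma adjusted p 0.0136). Cacnb3 was not called after scaling to own totals (-0.05, adjusted p 0.327) or quantile normalization (adjusted p 0.0978), nor Cacnb1 after scaling to own totals (-0.06, adjusted p 0.246), and neither in the low-Ttr libraries (-0.13, adjusted p 0.0664 and -0.13, adjusted p 0.0855).

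Cacnb4, the gene mutated in lethargic mice, ranged from 18.4 to 30.3 RPKM in WT (median 25.1) and from 20.2 to 30.6 RPKM in R6/1 (median 25.6). The ranges coincide, and no difference passed the test (log2 fold change 0.09, SE 0.0918, limma adjusted p 0.454). Relative to Cacnb4, Cacnb2 fell (ratio 0.454 to 0.853 in WT (median 0.701) and 0.381 to 0.586 in R6/1 (median 0.501); difference -0.47 on the log2 scale, exact permutation p 0.00214, adjusted p 0.00331). In the low-Ttr libraries the difference was of about the same size but did not pass (-0.42, adjusted p 0.101). The ratios of Cacnb1 to Cacnb3 (difference -0.01 on the log2 scale, exact permutation p 0.786, adjusted p 0.786) and of Cacnb3 to Cacnb4 (difference -0.21 on the log2 scale, exact permutation p 0.117, adjusted p 0.133) did not pass. The sum of auxiliary RPKM over the sum of alpha1 RPKM had about the same range in both genotypes, 1.65 to 2.13 in WT (mean 1.90) and 1.72 to 2.05 in R6/1 (mean 1.89).

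**Figure D5:**
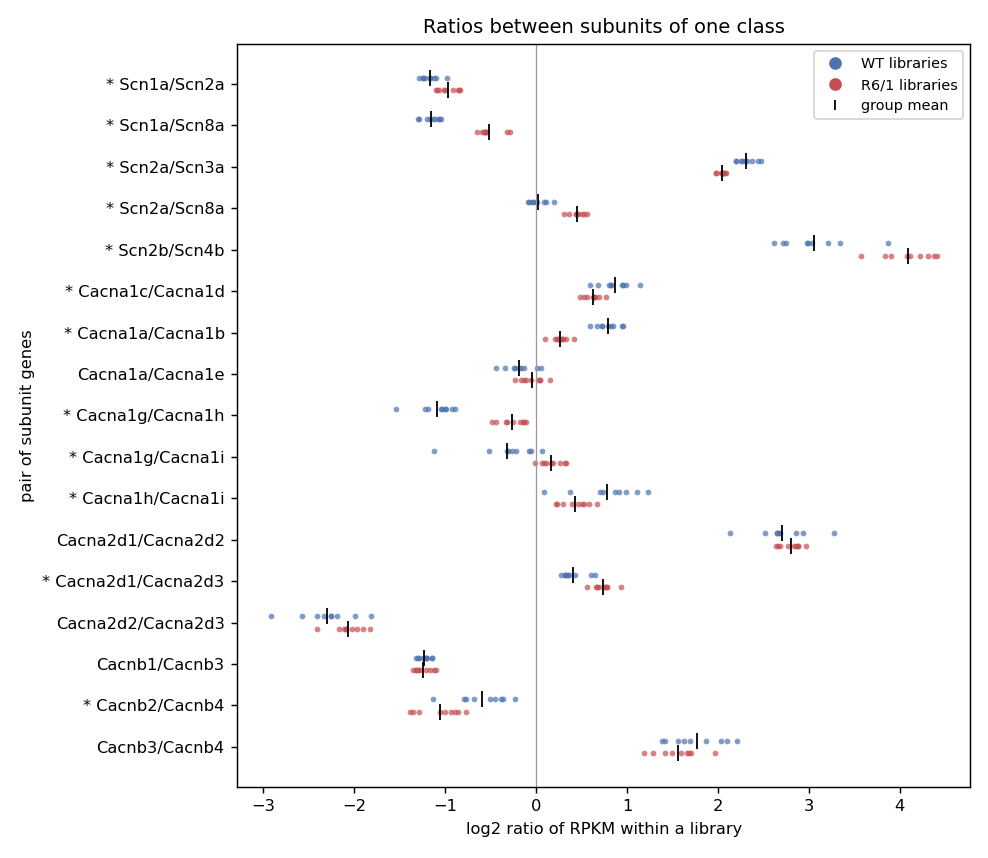
Log2 ratio of RPKM within each library for 17 pairs of subunits of a class, WT in blue and R6/1 in red with black ticks at the means; an asterisk marks the 12 pairs with an exact permutation adjusted p under 0.05. Points of Scn1a/Scn8a, Scn2a/Scn3a, Scn2a/Scn8a, Cacna1a/Cacna1b and Cacna1g/Cacna1h do not overlap between genotypes.

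The 6 members under 0.5 RPKM were left out of the test above. Scn4a and Cacna1s, the skeletal muscle pores, had 0 to 4 and 1 to 12 reads per library. Scn10a and Scn11a, pores of sensory neurons, had at most 4 and 5 reads, and 0 reads in 7 and 7 libraries, where 0 reads allow up to 3 by counting error alone. Cacna1f, the retinal L-type pore, had 3 to 8 reads in WT and 0 to 5 in R6/1. All 9 R6/1 libraries were under the WT median of Cacna1f, and 5 were under its lowest WT library. Cacna2d4 ranged from 0.252 to 0.596 RPKM in WT and 0.103 to 0.454 in R6/1. Its ranges overlapped between genotypes. With no filter on low values, limma called Cacna1f (-0.09 on log2(RPKM + 0.5), adjusted p 0.0112) and Cacna2d4 (-0.28, adjusted p 0.0264) lower in R6/1, where 17.7% of all genes were lower, and the other 4 did not pass. The authors' deposited table, which covers genes down to lower counts, called 24 of the 30 members (7 higher, 17 lower) where it called 40.4% of all genes with an adjusted p. These are the 22 above, Cacna1f (log2 fold change -0.63, adjusted p 0.0186) and Cacna2d4 (-0.57, 0.0115).

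Genes whose products work with these channels were mostly lower or did not pass the test. The partner lists, like the marker lists below, were chosen with earlier results of these data known. Of 51 listed partner genes, 48 were tested, 1 was higher and 26 were lower, where 24.8% of all tested genes were higher and 23.5% lower, with a median log2 fold change of -0.26. After scaling to own totals 5 were higher and 25 lower, where 35.4% of all tested genes were higher and 17.5% lower. After quantile normalization 3 were higher, where 4251 of 14446 tested genes were higher. Without WT replicate 2, 3 were higher, and without WT replicate 7 or 9 or R6/1 replicate 3 or 4, 2 were higher. At the axon initial segment, where sodium channels are anchored, 6 of 12 fell and none rose. Fgf13, which encodes a factor that binds the sodium channel tail, fell from 80.7 ± 7.41 to 60.5 ± 3.82 RPKM (change of -0.41 on the log2 scale, limma adjusted p 1.62e-06), as did its relative Fgf11 from 11.3 ± 1.32 to 7.26 ± 0.796 RPKM (change of -0.61 on the log2 scale, limma adjusted p 1.05e-06). Kcnq3, a subunit of the M-type potassium channel of the same site, fell from 17.4 ± 3.04 to 13.4 ± 2.78 RPKM (change of -0.38 on the log2 scale, limma adjusted p 0.0102). Of 13 genes of the release site, where P/Q- and N-type channels sit beside docked vesicles, 9 fell and none rose. Erc2, an active zone scaffold, fell from 34.7 ± 2.86 to 22.4 ± 2.00 RPKM (change of -0.62 on the log2 scale, limma adjusted p 2.42e-08). Rims1 and Rimbp2, which tether calcium channels, fell from 32.6 ± 4.24 to 22.3 ± 3.11 RPKM (change of -0.54 on the log2 scale, limma adjusted p 1.85e-05) and from 24.9 ± 2.16 to 17.4 ± 1.64 RPKM (change of -0.51 on the log2 scale, limma adjusted p 7.28e-07).

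Of 12 tested calcium channel regulators (14 listed), 6 fell and none rose, beside 23.5% and 24.8% of all tested genes. Stac2, which encodes an adaptor that acts on L-type channels, fell from 31.3 ± 2.60 to 17.0 ± 1.86 RPKM (change of -0.86 on the log2 scale, limma adjusted p 6.85e-10), and Stac from 1.33 ± 0.324 to 0.428 ± 0.0883 RPKM (change of -0.97 on the log2 scale, limma adjusted p 1.63e-07). Rem2, an activity-induced small GTPase that binds the beta subunit, fell from 8.54 ± 2.86 to 4.35 ± 0.685 RPKM (change of -0.86 on the log2 scale, limma adjusted p 3.12e-05). These 3 are named for the largest called changes of their list, and all 3 were fully apart between genotypes. Of the 12, 6 were lower with no overlap, where 6.38% of all tested genes were. Beside 23.5% of all tested genes, 5 of 7 tested Cacng genes (8 listed) fell. They are named for a calcium channel gamma subunit, though several are known as AMPA receptor partners, among them Cacng8, which fell from 97.9 ± 11.7 to 67.4 ± 4.86 RPKM (change of -0.53 on the log2 scale, limma adjusted p 7.50e-07), and Cacng3, which fell from 36.6 ± 7.10 to 26.6 ± 4.36 RPKM (change of -0.45 on the log2 scale, limma adjusted p 0.00162). Cacng6 fell from 2.05 ± 1.28 to 0.766 ± 0.506 RPKM (change of -0.94 on the log2 scale, limma adjusted p 0.0138). Nalcn, the sodium leak channel and a distant relative of the voltage-gated pores, was the 1 partner gene that rose, from 20.0 ± 1.11 to 24.8 ± 1.29 RPKM (change of 0.31 on the log2 scale, limma adjusted p 1.63e-06), with no overlap. Its 3 listed subunit genes did not pass the test.

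Markers of the cells that hold these channels are read against the 24.8% of all tested genes that were higher and the 23.5% that were lower. Of 8 pan-neuronal markers, 7 fell and Stmn2 rose, and their sum ranged over 2018 to 2404 RPKM in WT and 1646 to 1784 RPKM in R6/1. Of this list, Snap25 and Syt1 are also among the release site genes. Of 7 inhibitory neuron markers, 6 fell and none rose, with sums over 387 to 484 RPKM in WT and 232 to 297 RPKM in R6/1, beside the increase of Scn1a. The CA1 markers (5 of 6 lower) summed over 185 to 246 RPKM in WT and 135 to 153 RPKM in R6/1, and the CA3 markers (4 of 5 lower) over 122 to 217 RPKM in WT and 97.0 to 122 RPKM in R6/1. Astrocyte markers (6 of 6 lower) summed over 840.4 to 1109 RPKM in WT and 569 to 839 RPKM in R6/1, oligodendrocyte markers (4 of 6 lower) over 963 to 1231 RPKM in WT and 588 to 1020.4 RPKM in R6/1 and microglia markers (3 of 6 lower) over 94.4 to 138 RPKM in WT and 76.8 to 122 RPKM in R6/1. Of the precursor, endothelial and vascular muscle markers, 1 of 3, 1 of 5 and 1 of 4 fell, and none of 6 choroid plexus markers passed the test. No tested list had a defining marker near 0, and Stmn2 was the only marker in them that rose. The part of cell make-up in the channel results was not tested.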

How the data were processed

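RNA-seq values of 9 WT and 9 R6/1 libraries were used, grouped by the genotype in the labels. The authors deposited RPKM per gene symbol. Per the submitters' processing notes, the tools were TopHat and DESeq2 for RNA and Bowtie for ChIP, on build mm9, with no versions given; the counter and annotation are not given in the sources used here. The authors' deposited table holds the mean normalized count of a gene (a signal), its log2 fold change and error, the score of the test, and p-values before and after adjustment. The domain lists deposited by the authors give 1 score per lamin B1 domain, which was not used for any result. RPKM multiplied by mean normalized count over mean RPKM came back as whole reads for 99.84% to 99.89% of the values up to 1000 reads, within 0.05 of a read, so depth is scaled by size factors.

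The test was limma 3.58.1 (R 4.3.3; lmFit, eBayes with trend) on log2(RPKM + 0.5), two-sided, for genes whose mean reached 0.5 RPKM. On simulated data of this comparison, with 200 of 14446 genes changed, it recovered 60% of log2 changes of 0.3, 92% of 0.6, 96% of 1 and 100% of 2, with 3.33% of calls on unchanged genes. In the data themselves 48.3% of tested genes were called. The adjusted threshold depends on that share, so these rates need not carry over. Ratios used an exact permutation test over libraries. Every member described is named, and 2 further symbols that meet the rule are not reported here; from each partner list, up to 3 genes with the largest called change are named. The members and lists were chosen with earlier results of these data known. Alternatives were other pseudocounts, filters, scalings, a replicate block, limma without trend, library weights, the authors' table and leaving out each library; voom on the recovered reads and the libraries with Ttr under 200 RPKM were added after seeing the data. The floor given for 0 reads covers counting error only, while each SD and SE reflects the spread between libraries. In all, 0 columns with values of a sample were unused. No 2 libraries agreed within sampling noise.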

Additional observations from a re-analysis of the deposited data

Results flagged for a closer look

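Of 48 groups (24 members in 2 genotypes), 3 held a library far from the other 8, by a test that picks out about 1 in 20 groups by chance, or 2.4 of 48. Cacna1d was at 7.56 RPKM in WT replicate 6, where the next WT library was at 6.77 RPKM. Cacna1i was at 13.5 RPKM in WT replicate 1, next to 10.2 RPKM. Cacnb3 was at 67.5 RPKM in WT replicate 6, under the next at 78.0 RPKM.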

How the results depend on the processing

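Of 742 fold changes of single subunits over the alternatives, 718 kept their direction and their side of the threshold, 22 fell short of it and 2 reversed. Both reversals were Cacna1d, at 0.0229 after scaling to own totals and 0.0568 in the libraries with Ttr under 200 RPKM. Of 374 ratio values, 359 kept both, 5 fell short, 7 came to pass and 3 reversed. The reversals were Cacnb1/Cacnb3 without WT replicate 6 (0.000392) and R6/1 replicate 5 (0.00374), and Cacna1a/Cacna1e in the low-Ttr libraries (-0.0152), all of them ratios that did not pass the test; leaving out each library gave -0.0281 to 0.00374 for Cacnb1/Cacnb3. In the low-Ttr libraries, 1883 of all genes were higher, 2133 lower and 6 subunits lower, with 8 of the 18 libraries in the fit. Scaled to own totals, 9 subunits were lower and 5 partner genes higher, where 5110 of all genes were higher and 2526 lower. After quantile normalization 3 partner genes were higher, where 4251 of all genes were higher. The cause was not tested. Leaving out each library gave 7 subunits higher, 14 to 15 lower and 1 to 3 partner genes higher. Cacna1a/Cacna1e passed without WT replicate 3 or 4 or R6/1 replicate 9, and Cacna2d2/Cacna2d3 without WT replicate 5 or 7 or R6/1 replicate 4.

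The labels give both genotypes replicate numbers 1 to 9 and do not say whether these pair the libraries. Of 9 same-numbered pairs, 3 correlated above 0.1 (range -0.0533 to 0.237) and 2 correlated best with their own number. The check has no reference for unpaired libraries, so it cannot exclude pairing by number. With the number as a replicate block, 7 subunits were higher and 15 lower, 3666 genes were higher and 3467 lower, and Cacna2d2/Cacna2d3 passed (exact permutation adjusted p 0.0111). A planned edgeR fit was not run, since the deposited values are RPKM. Depth limits members such as Scn10a and Scn11a, each at 0 reads in 7 libraries.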
